A study of Homo sapiens with 30 samples.

Results

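The genes described here encode the semaphorins, their plexin and neuropilin receptors, the Slit proteins and the Robo receptors. They were chosen by gene symbol, in a choice made with earlier results of these data known. The rule took semaphorin classes 3 to 7, the A, B, C and D plexins, both neuropilins, SLIT1 to SLIT3 and ROBO1 to ROBO4. The rule found 38 of 23286 gene symbols, namely 20 semaphorins, 9 plexins, 2 neuropilins, 3 Slits and 4 Robos. Of these, 37 held at least 10 counts in some column and are described. SEMA5A stayed under that minimum everywhere.

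RNA was measured in Rh30, an established human cell line of alveolar rhabdomyosarcoma, a childhood tumour of muscle-like cells. Rh30 carries PAX3-FOXO1, a fusion of the transcription factors PAX3 and FOXO1. The 30 samples formed 15 groups of 2. In the PAX3-FOXO1-FKBP line the fusion carries the FKBP degradation tag, and in the FOXO1-FKBP line the tag is on FOXO1, and the DMSO cells of each line carry the same tag as its dTAG cells. Cells of each line received DMSO or 500 nM dTAG, a small molecule that directs a tagged protein to the proteasome, for 2, 6, 24 or 72 h. The other 10 libraries came from parental Rh30, which carries no tag, and from the PAX3-FOXO1-FKBP clones 4, 10, 11 and 12, each given DMSO per the labels. Each clone is 1 line, so a difference from the parent may be its own. No protein was measured. The labels do not tell separate cultures from repeat libraries, so the p-values speak only for the spread among these samples, possibly a technical one.

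Semaphorins are secreted or membrane-bound ligands first known for repelling growing axons. Class 3 semaphorins are secreted and mostly act through a neuropilin, which binds the ligand, and a class A plexin, which carries the signal into the cell; SEMA3E is the exception that binds PLXND1 directly. Membrane semaphorins of classes 4 to 7 bind plexins without a neuropilin, and Slits bind Robo receptors. In the embryo these systems also steer the migration of muscle precursors, blood vessels and neural crest cells, and PAX3 is a regulator of muscle precursors and neural crest.

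In the dTAG time course of the PAX3-FOXO1-FKBP line, PLXNA4 fell and the secreted ligands SEMA3B, SEMA3D and SEMA3E rose by a test of the slope. SEMA3D was above DMSO only from 24 h on, and the calls of the rising genes were lost without the 72 h column. In the FOXO1-FKBP line none of the 11980 genes tested passed, and so no member did. For SEMA3B and SEMA3E the test of the difference between the lines did not pass. PLXNA4 and SEMA3D each have a single start in RefSeq and passed the test of the difference between the lines, so the 250 bases before that start are shown for these genes, 5′ to 3′ in the direction of transcription. Both lie on the minus strand of chromosome 7 in GRCh38.p14, PLXNA4 at chr7:132576471-132576720 and SEMA3D at chr7:85187057-85187306.
PLXNA4: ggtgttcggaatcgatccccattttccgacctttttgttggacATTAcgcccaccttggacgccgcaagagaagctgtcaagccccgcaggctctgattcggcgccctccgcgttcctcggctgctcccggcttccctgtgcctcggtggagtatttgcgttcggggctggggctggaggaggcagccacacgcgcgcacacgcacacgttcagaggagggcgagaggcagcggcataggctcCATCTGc
SEMA3D: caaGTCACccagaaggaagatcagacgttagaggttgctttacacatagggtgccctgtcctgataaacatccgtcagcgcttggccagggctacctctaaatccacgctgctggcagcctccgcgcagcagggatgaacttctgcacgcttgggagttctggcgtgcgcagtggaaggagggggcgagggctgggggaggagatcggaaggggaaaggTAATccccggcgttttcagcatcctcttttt
Capitals mark 3 motifs searched on both strands: the E-box CANNTG read by MYOD-family factors, and GTCAC and ATTA, short cores bound by the paired domain and the homeodomain of PAX3. The PLXNA4 window held an E-box, CATCTG, from 7 bases before the start, and an ATTA from 207 bases before it. The SEMA3D window held GTCAC from 247 bases before the start and TAAT, which is ATTA on the other strand, from 31 bases before it. Such short words are common. Among all 35116 promoter windows in the table, which also take in the bases just after the start, 61.8% held CANNTG, 37.3% held GTCAC and 47.4% held ATTA. Of the 38 genes, 34 matched the promoter table, with 59 windows, and SEMA3B and SEMA3E have several starts each.

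Levels were compared between genes as CPM, the count as a share of the library's total on the usual scale, per kilobase of transcript, which removes gene length. In DMSO the PAX3-FOXO1-FKBP line held most transcript of SEMA6B, a membrane semaphorin, at 81.9 CPM per kilobase. Next came the receptors PLXNB2 at 53.7 and PLXNA1 at 32.4, then the membrane ligand SEMA4C at 31.3 and the receptor PLXND1 at 24.7. SEMA6A stood at 17.5 and ROBO1, the most abundant Robo, at 13.5 on this scale. The order of SEMA6B and PLXNB2 was the same in the FOXO1-FKBP line, at 92.5 and 65.7, and in parental Rh30, at 96.3 and 71.6. Each time-course column is a single pooled value, so neighbours in this order cannot be separated by a spread.

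**Figure D1:**
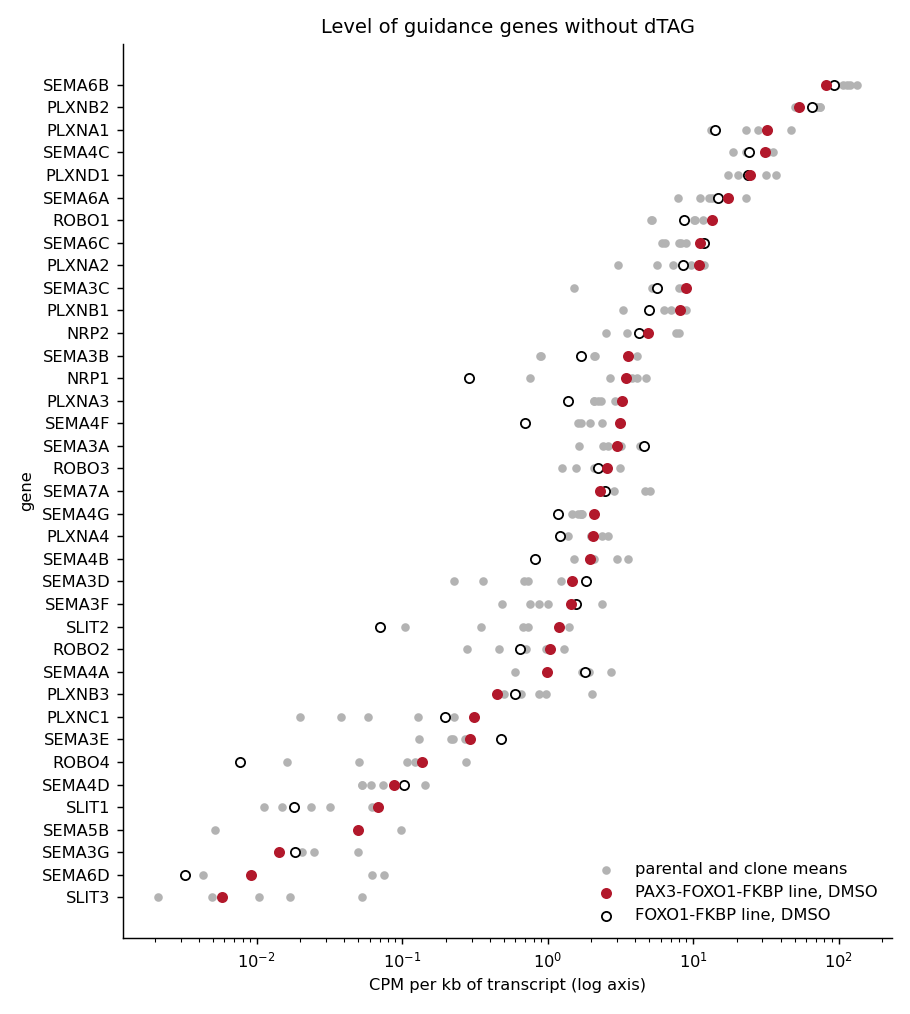
Level of each member without dTAG, in CPM per kilobase of transcript on a log axis; filled red points are the PAX3-FOXO1-FKBP line in DMSO, open points the FOXO1-FKBP line in DMSO, and grey points the means of 2 libraries for parental Rh30 and each of the 4 clones. SEMA6B and PLXNB2 lead, and NRP1, SEMA4F and SLIT2 are lower in the FOXO1-FKBP line than in the PAX3-FOXO1-FKBP line; points at 0 are not drawn.

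At the other end, ROBO4, SEMA3G, SEMA4D, SEMA5B, SEMA6D, SLIT1 and SLIT3 were too low for the time-course test, which asked for a normalised count averaging 50 or more across a line's 5 columns. A normalised count here is a count scaled to a common library size within 1 table. PLXNC1 and SLIT2 were also under that mean in the FOXO1-FKBP line. The time-course test therefore covered 30 members in the first line and 28 in the second. SEMA5B held 5.82 to 10.9 estimated counts in every column of the PAX3-FOXO1-FKBP line and was listed at 0 in each column of the FOXO1-FKBP line. In the clone table it held 10 counts in both libraries of clone 10, 1 count in a library of clone 4 and 0 in the other 7 libraries.

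The 2 tagged lines differed in DMSO for some ligands and receptors, in values without replicate error. In CPM, NRP1 stood at 20.3 in the PAX3-FOXO1-FKBP line and 1.70 in the FOXO1-FKBP line. SLIT2 stood at 7.69 against 0.453. In the clone table NRP1 ran from 3.89 to 34.0 CPM over 10 libraries and SLIT2 from 0.456 to 10.4, so NRP1 in the FOXO1-FKBP line lay below all libraries there and SLIT2 level with the lowest. The tables were made separately, and whether counting differed between them was not tested.

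The main question of the time course was which members moved when dTAG was given to the line with the tagged fusion. The test was a slope over the 5 pooled columns of a line on log2 of hours plus 1 (edgeR quasi-likelihood, Benjamini-Hochberg adjusted over all genes), so its p-values measure scatter around a straight line and not replicate error. In the PAX3-FOXO1-FKBP line 3 of 30 members rose, SEMA3B, SEMA3D and SEMA3E, beside 2.35% of all 12330 genes tested. PLXNA4 was the 1 of 30 that fell, beside 2.19% of all genes.

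PLXNA4 encodes a class A plexin, the signalling receptor for SEMA3A when paired with NRP1, and also a receptor for SEMA6A and SEMA6B. Its normalised count was 798 in DMSO, then 487 at 2 h, 282 at 6 h, 109 at 24 h and 88.5 at 72 h. Every step was lower than the one before. The log2 change from DMSO was -0.71, -1.50, -2.84 and -3.14 at the 4 times, and the slope was -0.55 ± 0.04 (SE over 5 columns; edgeR adjusted p = 0.0013). With the tag on FOXO1 its normalised counts were 449, 430, 420, 475 and 385 in the same order, which gave a slope of -0.02 ± 0.03 and an adjusted p of 0.91. The difference in slope between the lines was -0.54 ± 0.05 (edgeR adjusted p = 0.00082), and 0.978% of all 11764 genes tested were called lower by this test. In CPM, PLXNA4 stood at 2.90 after 72 h, while the 10 libraries of parental Rh30 and the clones, all without dTAG, ran from 15.7 to 40.0.

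SEMA3D, a secreted semaphorin that acts through neuropilins, moved late. Its normalised count was 260 in DMSO, 220 at 2 h, 238 at 6 h, 508 at 24 h and 857 at 72 h. The first 2 times lay below DMSO and the last 2 above it. Its log2 change at 72 h was 1.71 and its slope 0.31 ± 0.06 (edgeR adjusted p = 0.029). The FOXO1-FKBP line held 306, 264, 219, 271 and 227 counts, each dTAG column below DMSO, with a slope of -0.05 ± 0.03 and an adjusted p of 0.84. The difference in slope was 0.36 ± 0.08 (edgeR adjusted p = 0.049), beside 1.14% of all genes called higher. That call was lost without the 2 h column, without the 72 h column, with scaling by library totals and with a slope on the order of the times, where the slope differences were 0.34, 0.26, 0.34 and 0.55. In CPM, SEMA3D reached 28.1 at 72 h, while the DMSO columns of the lines held 9.15 and 11.5 and the 10 parental and clone libraries from 0.818 to 8.68.

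SEMA3E, the ligand of PLXND1, was higher than in DMSO at every time. The normalised counts were 60.4 in DMSO, then 93.7, 120, 133 and 206. The slope was 0.26 ± 0.04 (edgeR adjusted p = 0.017). The same gene in the FOXO1-FKBP line stood at 92.3 in DMSO and at 80.8, 88.1, 67.6 and 121 after dTAG, on both sides of DMSO. SEMA3B, a secreted semaphorin studied as a tumour suppressor, went from 298 in DMSO through 329, 467 and 559 to 593. Its slope was 0.18 ± 0.03 (edgeR adjusted p = 0.020). The FOXO1-FKBP line held 133, 132, 116, 146 and 165 counts of SEMA3B. For these genes the difference in slope between the lines did not pass, with edgeR adjusted p = 0.19 for SEMA3E and 0.28 for SEMA3B, so a difference between the lines was not shown. PLXND1, the receptor of SEMA3E, was measured at 4971 counts in DMSO and 3835 at 72 h and did not pass (edgeR adjusted p = 0.62).

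Without the 72 h column, PLXNA4 alone passed the trend in the PAX3-FOXO1-FKBP line, and the slopes of SEMA3B, SEMA3D and SEMA3E were then 0.21, 0.21 and 0.24. Without the 2 h column all 4 genes passed. B lineage markers, summed, stood at 55.9 CPM in that column, against 3.11 in DMSO and 0.893 to 1.55 at the later times, and SEMA4D, a semaphorin known from lymphocytes, held 9.47 estimated counts at 2 h and 14.7 in DMSO.

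**Figure D2:**
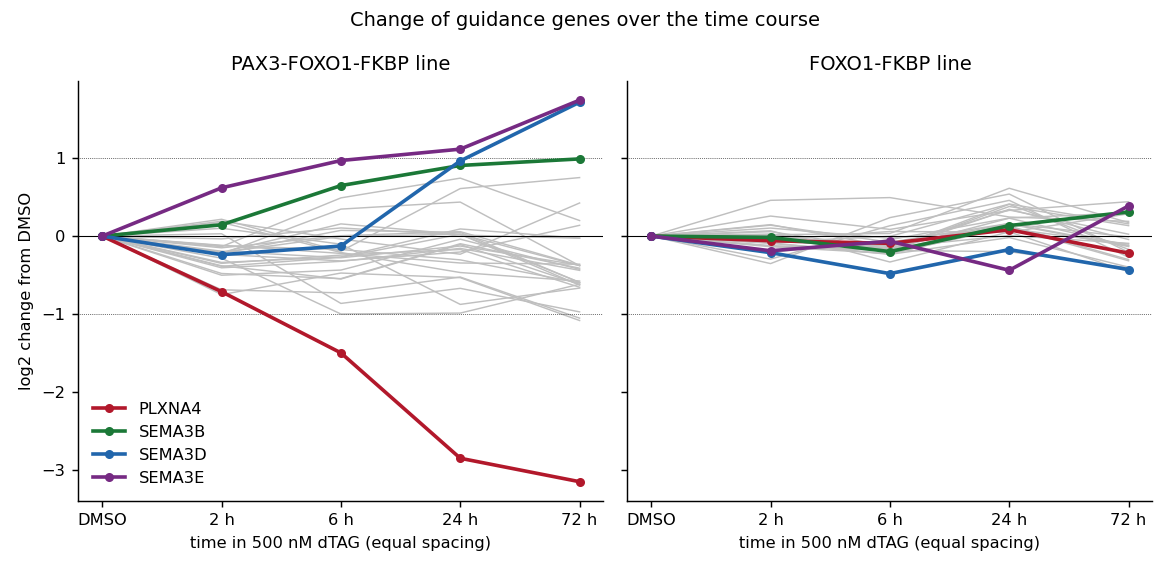
Log2 change from DMSO for members whose normalised count averaged 50 or more, in the PAX3-FOXO1-FKBP line (left, 30 genes) and the FOXO1-FKBP line (right, 28 genes), with times spaced equally; colours mark the 4 genes that passed the trend test in the first line and grey lines the others, and dotted lines mark 2-fold. PLXNA4 falls to -3.14 at 72 h and SEMA3D and SEMA3E reach 1.71 and 1.74 on the left, while on the right the changes stay within 2-fold.

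A rule of size was applied at each single time, at least 2-fold from DMSO, which has no replicate check because each time is 1 pooled column and all times share the DMSO column. At 2 h no member passed it in the PAX3-FOXO1-FKBP line, beside 0.373% of all genes higher and 0.276% lower. At 6 h PLXNA4 was the only member past it, beside 1.23% of all genes lower and 0.608% higher. At 24 h SEMA3E was past it upward, beside 1.38% of all genes, and PLXNA4 downward, beside 1.73%. At 72 h SEMA3D and SEMA3E were at least 2-fold higher, beside 3.41%, and PLXNA4, SEMA4A and SLIT2 at least 2-fold lower, beside 3.05%. SEMA3B at 0.99 and ROBO2 at -0.97 lay just inside 2-fold at 72 h. In the FOXO1-FKBP line no member passed at any time, and the shares over all genes were 0.0751%, 0.0584%, 0.209% and 0.442% at 2, 6, 24 and 72 h.

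Among the secreted class 3 semaphorins, the values of 5 of 6 measured genes lay above DMSO at 72 h, with a median log2 change of 0.87, while the median over all genes was -0.01. SEMA3C, which guides heart and vessel development, stood at 1321, 1534, 1155, 2015 and 2221 normalised counts and did not pass (slope 0.13 ± 0.04, edgeR adjusted p = 0.14). SEMA3A, the founding axon repellent, stood at 702 in DMSO and 773 at 72 h, a log2 difference of 0.14. SEMA3F, a ligand of NRP2, was the class member below DMSO at 72 h, at 120 counts against 157, after 134 at 2 h, 200 at 6 h and 213 at 24 h. In the FOXO1-FKBP line 3 of 6 class 3 genes lay above DMSO at 72 h and the median was -0.01.

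The membrane semaphorins of class 4 lay on the other side. All 5 measured genes were below DMSO at 72 h in the PAX3-FOXO1-FKBP line, with a median of -0.60, and none passed the trend test. That side was not particular to class 4, since 23 of the 30 measured members lay below the same DMSO column. The median over all genes was -0.01. SEMA4A, an immune-cell ligand, stood at 93.2 in DMSO and 54.6, 66.6, 63.8 and 43.0 after dTAG, lower at all 4 times (log2 change -1.08 at 72 h, edgeR adjusted p = 0.29). SEMA4C, a ligand of PLXNB2 expressed in developing muscle, stood at 3155 in DMSO and 2895, 2801, 2554 and 2081 after dTAG, with an edgeR adjusted p of 0.075. The class 6 genes SEMA6A, SEMA6B and SEMA6C differed from DMSO by -0.03, -0.03 and 0.20 at 72 h. SEMA7A, which is held to the membrane by a lipid anchor and binds PLXNC1 and integrins, stood at 218 in DMSO, 118 at 24 h and 137 at 72 h (edgeR adjusted p = 0.14).

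Of the receptors, all 9 plexins lay below DMSO at 72 h in the PAX3-FOXO1-FKBP line, with a median of -0.44 beside -0.01 over all genes. Of them 8 stood between -0.63 and -0.37, and only PLXNA4 passed. PLXNA2, for example, stood at 3584 in DMSO and 2334 at 72 h, and PLXNB2 at 9738 and 7183. NRP1 and NRP2 are co-receptors for class 3 semaphorins and for vascular endothelial growth factor. NRP2 stood at 926 in DMSO and at 761, 463, 467 and 604 after dTAG, while NRP1 was 576 in DMSO and 773 at 72 h; neither passed (edgeR adjusted p = 0.28 and 0.71).

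The measured members are long transcripts, with a median of 6321 nt over the 38 genes against 3527 nt for 11091 tested genes with a length, and log2 changes at 72 h in this line ran with transcript length across genes (Spearman rho -0.28 over 11084 genes, which are not independent replicates). The median over the 30 members at 72 h was -0.42, and -0.28 after a correction for length and GC content. After that correction the 9 plexins and the 5 class 4 genes still lay below DMSO, with medians of -0.30 and -0.52, and 5 of 6 class 3 genes above it, with a median of 0.92. With offsets for length and GC content in the test, the same 4 members passed the trend. Scaling by library totals moved the median over all genes at 72 h to -0.11 and that of the members to -0.52.

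**Figure D3:**
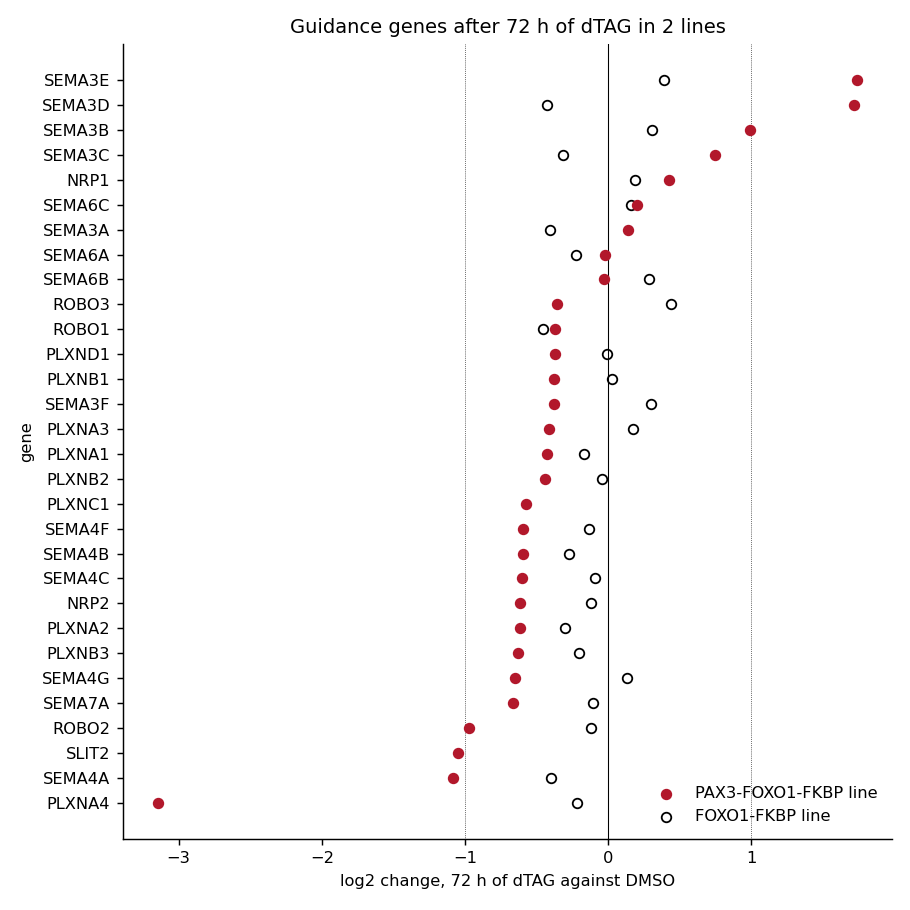
Log2 change at 72 h of dTAG against DMSO for the 30 members measured in the PAX3-FOXO1-FKBP line (filled red) and the same genes in the FOXO1-FKBP line where measured (open), ordered by the first; each point is 1 pooled column against another, and dotted lines mark 2-fold. SEMA3E, SEMA3D, SEMA3B and SEMA3C sit at the top, from 0.75 to 1.74, and PLXNA4 stands alone at -3.14, while open points stay between -0.46 and 0.44.

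SLIT2, the ligand of ROBO1 and ROBO2, stood at 218 normalised counts in DMSO and at 135, 131, 151 and 104 after dTAG. All 4 values were lower than DMSO, the log2 change at 72 h was -1.05, and the trend did not pass (edgeR adjusted p = 0.23). ROBO2 stood at 262, 268, 143, 164 and 133, low from 6 h on (slope -0.17 ± 0.05, edgeR adjusted p = 0.11). ROBO1, at 2869 in DMSO and 2215 at 72 h, and ROBO3, at 333 and 259, differed by -0.37 and -0.36. ROBO4, the endothelial Robo, held 19.1 estimated counts in DMSO and 3.77 to 24.9 after dTAG, with at most 1.60 in the FOXO1-FKBP line.

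In the FOXO1-FKBP line, which received the same compound, no member was called by the trend (edgeR, 0 of 28, beside 0% of 11980 genes). At an unadjusted p under 0.05 there were 2 members and 570 genes, and DESeq2 called 1 gene and no member. Without the 24 h column, 4 members passed there, PLXNA2, ROBO1, SEMA3A and SEMA6B, together with 11.1% of all genes. At 24 h 24 of 28 members lay above DMSO in this line, with a median of 0.16 against -0.004 over all genes. The median of the members fell to 0.02 after the correction for length and GC content.

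Partners of these genes were followed in lists written with earlier results of these data known. Of 41 tested semaphorin and plexin partners, 1 rose and 2 fell in the PAX3-FOXO1-FKBP trend (edgeR, adjusted over all genes), beside 2.35% of all genes that rose and 2.19% that fell. MRAS, a small GTPase of the family on which plexins act, rose from 2754 normalised counts in DMSO to 5457 at 72 h (adjusted p = 0.0076). NRCAM, a cell adhesion molecule that joins neuropilin complexes, fell from 1064 to 322 (adjusted p = 0.0027), and DPYSL3, a collapsin response mediator of semaphorin signals, from 4130 to 2325 (adjusted p = 0.027). Of 31 Slit and Robo partners, 2 rose and none fell. Counts this small beside those shares are no result about either list. GPC1, a heparan sulfate proteoglycan that binds Slits, rose from 9231 to 20950 (adjusted p = 0.0093), and ABL2, a kinase of the ABL family that acts with Robo, from 1116 to 2406 (adjusted p = 0.028). The difference in slope between the lines passed for NRCAM, MRAS, GPC1 and ABL2 (edgeR adjusted p = 0.023, 0.023, 0.046 and 0.049) and not for DPYSL3 (0.21).

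Other guidance families were counted in the same way. Of 17 tested ephrins and Eph receptors, 4 fell and none rose, beside the same 2.19% and 2.35% of all genes. EPHA3 went from 1711 to 341 normalised counts (edgeR adjusted p = 0.030), EPHA5 from 672 to 167 (adjusted p = 0.013), EPHA7 from 4398 to 1520 (adjusted p = 0.0043) and the ligand EFNB2 from 1339 to 441 (adjusted p = 0.021). Of 10 netrin, RGM and related genes, NTN5 fell from 3580 to 718 (adjusted p = 0.0010) and HFE2, the hemojuvelin gene of the RGM family, rose from 9.75 to 271 (adjusted p = 0.014). The difference in slope passed for NTN5 (edgeR adjusted p = 9.01e-05) and EPHA7 (0.015), but not for EPHA3, EPHA5 and EFNB2 (0.12, 0.099 and 0.067), and HFE2 was not tested in it. As with every gene tested, none of these passed the trend in the FOXO1-FKBP line. The median log2 change at 72 h in the PAX3-FOXO1-FKBP line was -0.59 for the ephrin and Eph list, -0.28 for the netrin list, -0.12 for Slit and Robo partners and -0.01 for semaphorin and plexin partners.

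The clone table asked how far tagged clones differ from the untagged parent without dTAG. All 5 groups were fitted together with edgeR's quasi-likelihood test (2 libraries each, 5 residual degrees of freedom), and 32 members passed the filter on low counts. Among them 28 differed between some of the 5 groups, beside 83.1% of all 14175 genes. Clone 4 differed from the parent in 13 members, beside 47.4% of all genes, and clone 10 in 16, beside 52% of all genes. Clone 11 differed in 12, beside 51.6%, and clone 12 in 14, beside 52.6%. The mean of the 4 clones differed in 14, beside 55.9%. The shares of members lie near these backgrounds, so the counts are not a result about guidance genes. Log2 differences from the parent ran with GC content across genes (Spearman rho 0.46 to 0.59 over 12587 genes for single clones). With transcript length rho was -0.11 and -0.04 in clones 4 and 10, and -0.38 and -0.32 in clones 11 and 12.

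SEMA6A and SEMA3F were called in the same direction in every clone. The share of all genes called so, or without overlap between parent and clones, was not counted. Neither trait is therefore a result about guidance genes. SEMA6A, a membrane ligand of PLXNA2 and PLXNA4, held 3214 and 3002 normalised counts in the parental libraries and 1083 to 2032 in the 8 clone libraries, without overlap. It was lower in each clone, by a log2 difference of -0.88 ± 0.11 (SE) in the mean of the clones (edgeR adjusted p = 9.98e-05). SEMA3F held 169 and 184 counts in the parent and 25.9 to 103 in the clones, also without overlap (log2 difference -1.46 ± 0.26, edgeR adjusted p = 0.00075). Its single calls in clones 10 and 11 were lost when 1 library was left out, with log2 differences from -1.28 to -0.84 in the fits that lost them.

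SEMA3D, which rose in the dTAG time course, held 134 and 170 counts in the parental libraries. Clone 4 held 43.3 and 18.5 and clone 10 held 103 and 91.3. Clone 11 held 113 and 84.1, while 51.8 and 51.3 were found for clone 12. All 8 clone libraries lay below both parental ones, and the share of all genes doing so was not counted. It was called lower in clone 4 (-2.28 ± 0.34, edgeR adjusted p = 0.00046; -1.39 with offsets for length and GC content) and in clone 12 (-1.56 ± 0.32, edgeR adjusted p = 0.0022). With the same offsets the call in clone 12 was lost, at -0.46, as was that in the mean of the clones, which moved from -1.27 to -0.27. SEMA3B held 122 counts in each parental library and 293 and 218 in clone 10. Clone 4 held 72.6 and 44.0 and clone 11 held 53.8 and 65.4. It was lower in clones 4 and 11 (-1.06 ± 0.27 and -1.04 ± 0.27) and higher in clone 10 (1.07 ± 0.24), though the last call was lost with the offsets, at 0.52, and the clone 11 value moved to -1.65. SEMA3E was called in no clone without the offsets, but with them it was called in clones 4 and 12 and in the mean of the clones.

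PLXNA4 held 678 and 602 counts in the parental libraries. Clone 4 held 772 and 424, clone 10 held 461 and 339, clone 11 held 881 and 740 and clone 12 held 641 and 598. Clone 12 overlapped the parent, and the 2 libraries of clone 4 lay on either side of it. Clone 11 lay above the parent without passing the test (0.34 ± 0.25, edgeR adjusted p = 0.26), though PLXNA4 was called there with the offsets. Clone 10 was lower (-0.68 ± 0.25, edgeR adjusted p = 0.041). That call was lost without parental replicate 1, without parental replicate 2 and without clone 10 replicate 2, at -0.59, -0.76 and -0.51, and with the offsets the value was -1.05.

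Single clones stood apart for particular ligands and receptors. In clone 11 NRP1 held 110 and 92.1 counts against 444 and 428 in the parent (-2.10 ± 0.25, edgeR adjusted p = 0.00016). No other clone was called for NRP1 without the offsets, though clone 4 was with them. SEMA3C, a ligand that uses NRP1, held 212 and 144 counts in clone 11 against 811 and 805 in the parent (-2.17 ± 0.26, edgeR adjusted p = 0.00016), and the offsets brought this to -1.41. Both genes were thus lowest in clone 11, but so were NRP2, PLXNA1, PLXNA2, SEMA3A and SEMA3E, among others. Over the 32 members the median log2 difference there was -0.40, against -0.005 over all genes. In clone 12 SLIT2 held 19.7 and 10.5 counts against 72.1 and 96.0 in the parent (-2.49 ± 0.43, edgeR adjusted p = 0.00088), and ROBO2 51.8 and 61.8 against 159 and 180 (-1.57 ± 0.35, edgeR adjusted p = 0.0037; -0.90 with the offsets). In clone 10 SLIT2 was higher, at 216 and 161 (1.16 ± 0.34, edgeR adjusted p = 0.014), a call lost without parental replicate 1 and without clone 10 replicate 1, at 0.97 and 0.94.

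Among plexins, PLXNB1, a receptor of SEMA4D, was lower in clone 12, at 592 and 504 counts against 1291 and 1272 in the parent (-1.23 ± 0.17, edgeR adjusted p = 0.00026). PLXNB3, a receptor of SEMA5A, was higher there, at 339 and 243 against 110 and 132 (1.26 ± 0.28, edgeR adjusted p = 0.0035). PLXNC1 held 31.9 and 32.7 counts in the parent and 2.32 to 26.4 in the clones (mean of the clones -1.98 ± 0.38, edgeR adjusted p = 0.0012). PLXNA1 held 4112 and 4068 counts in the parent and 10125 and 8018 in clone 10, where it was higher (1.15 ± 0.21; 0.52 with the offsets). PLXNA2 held 1275 and 1229 in the parent and 3217 and 2487 in clone 10 (1.19 ± 0.25). Both plexins pair with neuropilins. PLXNA1 was lower in clone 11, at 2452 and 3066 counts (-0.57 ± 0.21), a call lost without either parental library, at -0.56 and -0.58, and without clone 11 replicate 1, at -0.47. PLXND1 held 2775 and 2831 counts in the parent. Clone 4 held 5329 and 4481 and clone 10 held 6005 and 5045, higher in both clones (0.81 ± 0.16 and 0.98 ± 0.16), and with the offsets the clone 4 value was 0.31 and the clone 10 call was lost, at 0.22. NRP2 held 549 and 551 in the parent. Clone 4 held 1438 and 780, and clone 10 held 1158 and 1090. It was higher in both clones, at 1.01 ± 0.25 and 1.03 ± 0.25, and the clone 4 call was lost without clone 4 replicate 1, at 0.46.

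Among the remaining receptors and ligands, ROBO3 was higher in clone 12 at 309 and 343 counts against 96.6 and 127 in the parent (1.54 ± 0.25, edgeR adjusted p = 0.00066). ROBO4 was higher in clone 10, at 20.9 and 33.8 against 4.91 and 4.36 (2.52 ± 0.58, edgeR adjusted p = 0.0042). SEMA4B held 147 and 163 counts in the parent and 268 and 354 in clone 11, and SEMA4C 1632 and 1566 in the parent and 2428 and 2878 in clone 11. Both were higher in clone 11 (1.00 ± 0.19 and 0.73 ± 0.13) and in clone 10 (0.64 ± 0.19 and 0.73 ± 0.13), and both clone 10 calls were lost with the offsets, at 0.09 and 0.21. The clone 11 values with the offsets were 0.56 and 0.28. The clone 10 call of SEMA4B was also lost in each fit without a parental or a clone 10 library, at 0.57 to 0.72. SEMA4A was lower in clone 10, at 41.9 and 41.7 counts against 114 and 108 (-1.40 ± 0.40, edgeR adjusted p = 0.013), a call lost without either clone 10 library, at -1.40 and -1.44. SEMA6B, the most abundant member, held 7505 and 7457 counts in the parent and 11741 and 12733 in clone 12 (0.71 ± 0.15, edgeR adjusted p = 0.0031), and the offsets ended that call, at 0.23. SEMA7A held 176 and 140 in the parent and 380 and 340 in clone 12 (1.19 ± 0.33, edgeR adjusted p = 0.011), a call lost without parental replicate 2, without clone 12 replicate 1 and with the offsets, at 1.03, 1.05 and 0.76. SEMA3A held 501 and 528 in the parent and 303 and 316 in clone 11 (-0.73 ± 0.16, edgeR adjusted p = 0.0031), and with the offsets it stood at 0.31, the other direction. In clone 4 SEMA3A was higher, at 824 and 746 counts (0.61 ± 0.15, edgeR adjusted p = 0.0082), and at 1.39 with the offsets. The clone 4 call was lost without either parental library, at 0.57 and 0.64. ROBO1 was lower in clones 11 and 12 (-0.74 ± 0.28 and -0.77 ± 0.28), and both calls depended on single libraries and on the offsets. In clone 11 it was lost without either parental library, without clone 11 replicate 2 and with the offsets, at -0.71, -0.76, -0.61 and -0.35. In clone 12 it was lost without either parental library, without either clone 12 library and with the offsets, at -0.75, -0.79, -0.96, -0.71 and -0.49. SEMA4F was higher in clone 10, at 450 and 363 counts against 221 and 237 (0.83 ± 0.18, edgeR adjusted p = 0.0035), a call lost with the offsets, at 0.38. Further single-clone calls lost with the offsets were PLXNA1, ROBO3 and SEMA6B in clone 4, at 0.28, 0.46 and -0.000246, ROBO3 and SEMA7A in clone 10, at 0.31 and 0.69, and PLXND1 in clone 12, at 0.10. The offsets also added calls, for example of PLXNB1 and SEMA6C in clones 4, 10 and 11. With them 18 members were called in clone 4, 14 in clone 10, 16 in clone 11 and 14 in clone 12. The shares of all genes beside these counts were 47.9%, 48.1%, 43.3% and 48.5%.

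**Figure D4:**
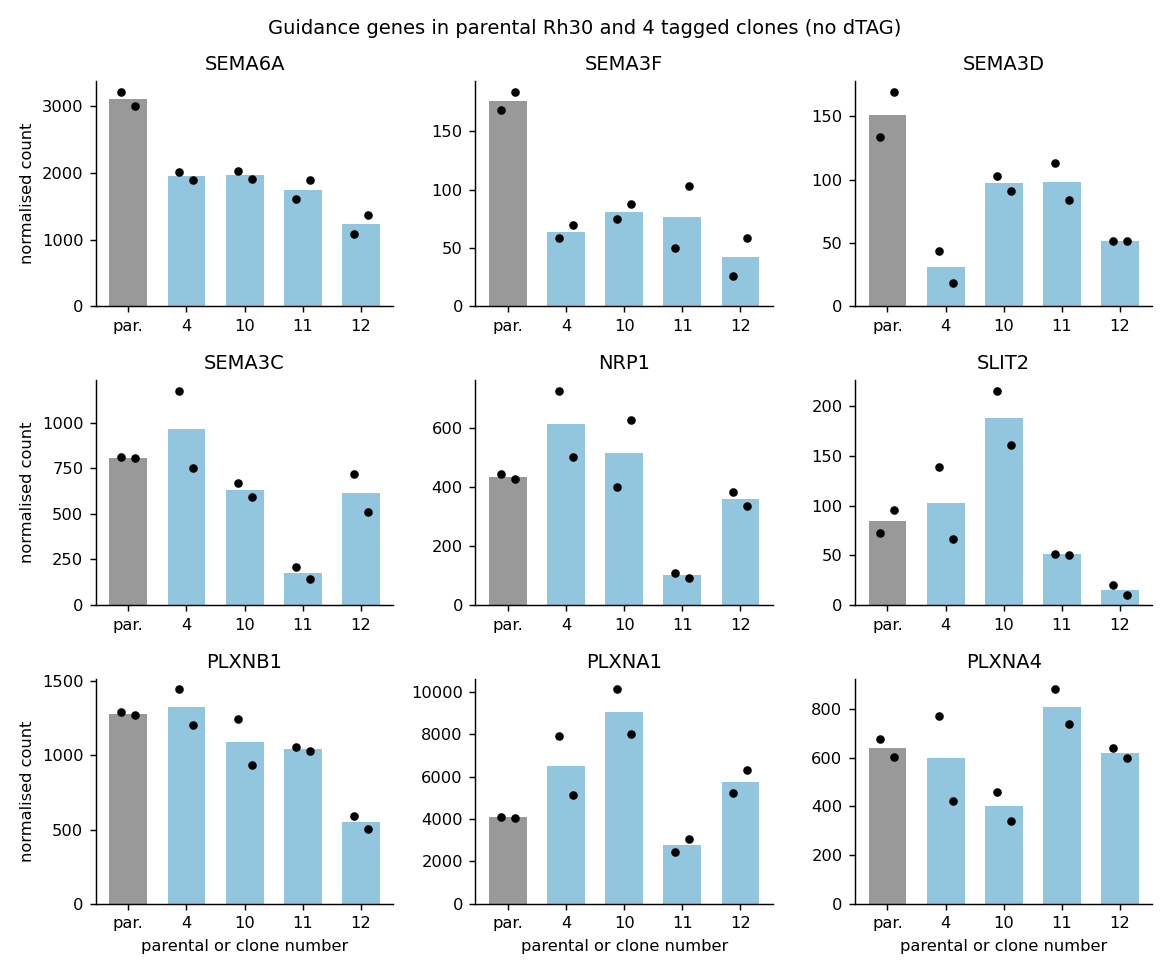
Normalised counts of 9 members in parental Rh30 (grey) and in PAX3-FOXO1-FKBP clones 4, 10, 11 and 12 (blue), all without dTAG; bars are means of 2 libraries and points the libraries. SEMA6A and SEMA3F are below the parent in every clone, NRP1 and SEMA3C are low in clone 11, SLIT2 and PLXNB1 are low in clone 12, and PLXNA4 is below the parent in clone 10 and above it in clone 11.

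Depth was 25863153 to 30466522 estimated counts per time-course column and 17746684 to 26834005 counts per clone library. All 12 rhabdomyosarcoma markers, MYOD1, MYOG and DES among them, were present in the 3 tables. The fusion and FOXO1 share sequence with the genes named PAX3 and FOXO1, so neither count alone gives the fusion transcript. In the line with the tagged fusion PAX3 stood at 782 normalised counts in DMSO and 400 to 495 with dTAG. FOXO1 stood there at 3742 in DMSO and at 3346, 4096, 5405 and 4574 with dTAG. Paired libraries of clone 4 differed from each other with transcript length (Spearman rho 0.58 over 12587 genes), those of clone 10 with rho 0.39, of clone 11 with 0.25, and of the parent and clone 12 with 0.06 and 0.05. In the clone 4 pair 26 of 32 members were higher in replicate 1. The summed fibroblast markers went from 52.2 CPM in DMSO to 108.8 at 72 h in the PAX3-FOXO1-FKBP line and were 20.8 to 25.2 in the FOXO1-FKBP line. DCN was the only marker of that list under 10 counts in all FOXO1-FKBP columns and in all clone libraries. Endothelial markers summed to 9.01 to 16.7 CPM in the PAX3-FOXO1-FKBP line, and ERG was under 10 counts everywhere. Neuron markers summed to 115 CPM in DMSO and 170 at 72 h in the PAX3-FOXO1-FKBP line, its lowest and highest columns. They summed to 139 to 171 CPM in the FOXO1-FKBP line and to 58.3 to 263 in the clone table. Of these 8 markers, 4 reached 10 counts in each table, and SNAP25, STMN2, ELAVL3 and ELAVL4 were under 10 counts everywhere. Glial markers summed to 0.597 to 1.96 CPM in the PAX3-FOXO1-FKBP line, where 2 of 6 reached 10 counts. SOX10 and GFAP of that list were under 10 counts everywhere. The part of these markers in the results was not tested, and fewer cells of a type cannot be told apart from less RNA per cell.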

How the data were processed

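RNA sequencing values were taken from 3 tables deposited by the authors. Both time-course tables hold estimated counts, 1 column per condition per the file headers, so the authors pooled the 2 samples of each condition, and 73.6% of values are not whole. The clone table holds whole read counts per library, as deposited. Trimmomatic 0.32, Bowtie2, Cuffdiff 2.1.1 and hg19 appear in the submitters' processing notes; the sources used here do not give what each did or whether counting used strand. Estimated counts were rounded to whole numbers before testing, and genes with a failed estimate (an isolated 0; 41 and 9) were left out.

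Tests used edgeR 4.0.16 in R 4.3.3 with TMM scaling and an adjusted p threshold of 0.05 over all genes. The clone fit used filterByExpr with a minimum count of 10, and the time course a minimum mean of 50, a prior count of 2 for changes and 3 residual degrees of freedom for each trend, 6 for the difference in slope. Without replicate columns a single time has no test. DESeq2 1.42.0 was an alternative. Tested on simulated data, the clone 4 fit (14175 genes) recovered 64 of 100 changes of log2 size 1 and 95 of 100 of size 2, with 6 false calls, and the trend of the PAX3-FOXO1-FKBP line (12330 genes) 88 and 100, with 11 false calls. The simulations gave all genes and groups the same spread, taken from the clone libraries and made smaller for the trend. Simulated trends were exactly straight lines. These shares therefore do not give the recovery in the real data. The 2 parental libraries differed little beyond counting noise (mean chi-square 1.84 per gene) and were kept as 2; clone pairs ranged from 13.99 to 51.3.

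Symbols, exactly as in the tables, gave the members. Full values in the PAX3-FOXO1-FKBP line are printed for members called by a trend, the difference in slope or the size rule at 24 or 72 h. Members called in at least 2 clones or with the largest fold in 1 are given with values for some clones. A clone not named for a gene may therefore also have been called. Of each partner list, up to 4 called genes are given by lowest p. The members and lists were chosen with earlier results of these data known. Transcript length and GC content came from GENCODE v29 and promoters from RefSeq (GRCh38.p14), both by symbol. Alternatives were other scalings, filters, prior counts and tools, leaving out each column or library, a replicate block, and offsets for length and GC content, the last chosen after seeing the data.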

Additional observations from a re-analysis of the deposited data

Results flagged for a closer look

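The slopes over the dTAG time course differed between the lines for PLXNA4 and SEMA3D, by a test of the difference itself (edgeR quasi-likelihood). For PLXNA4 the slope in the PAX3-FOXO1-FKBP line minus that in the FOXO1-FKBP line was -0.54 (adjusted p = 0.00082), and it was lower than DMSO at all 4 times in the first line. For SEMA3D the difference was 0.36 (adjusted p = 0.049), with values above DMSO at 24 and 72 h in the first line and below DMSO at all 4 times in the second. The adjusted p of PLXNA4 was under 0.05 in every alternative tried, and that of SEMA3D was not in 4 of them.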

How the results depend on the processing

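In the PAX3-FOXO1-FKBP line, the count of members at least 2-fold from DMSO at any time went from 5 to 3 with a prior count of 10, which lost SEMA4A and SLIT2, and the trend called 7 members instead of 4 with DESeq2, which added ROBO2, SEMA3C and SEMA4C, and 1 without the 72 h column. In the FOXO1-FKBP line the size rule gave 1 member, SLIT2, instead of 0 with a minimum mean of 10, and the trend gave 4 without the 24 h column. The difference in slope called 1 member instead of 2 with scaling by library totals, with a slope on the order of the times, without the 2 h column and without the 72 h column. Leaving out 1 library at a time gave 8 to 12 members for clone 4, 11 to 13 for clone 10, 9 to 13 for clone 11, 11 to 13 for clone 12, 5 to 19 for the mean of the clones and 26 to 31 for any difference. The lowest counts for clone 4 and the mean of the clones came without parental replicate 1 (8 and 5) and without parental replicate 2 (8 and 8). With the length and GC offsets, 4 single values changed sign: SEMA6B in clone 4 at -0.000246 and in the mean of the clones at -0.067, SEMA3A in clone 11 at 0.31 and SEMA4C in the mean of the clones at -0.049. The cause was not tested. Over 83 single results, 612 of 763 alternatives kept direction and side of the threshold and 147 kept direction only. Deviations of same-numbered libraries correlated by 0.15 to 0.36 between clones 4, 10 and 11 but by 0.01 to 0.02 between these and the parent, so the samples were not treated as paired. With a replicate block, 13, 18 and 14 members were called in clones 4, 10 and 11, with SEMA3C and SEMA3D gained in clone 10, NRP2, PLXNA2 and ROBO2 gained in clone 11, and SEMA4F lost there; no paired analysis was possible for clone 12 and the results that include it because its labels carry other numbers, or for the time course because its columns are pooled. Depth limits ROBO4, SEMA3G, SEMA4D, SEMA5B, SEMA6D, SLIT1 and SLIT3, which held at most 30 counts in any column.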
